A study of Rattus norvegicus with 4 samples.

Results

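The hypoxia response genes described here are 10 genes fixed by name, Hif1a, Epas1, Arnt, Egln1, Egln3, Vegfa, Vegfb, Bnip3, Adm and Ankrd37, looked up by symbol in a table of 15731 genes. Of the 10, 9 were found once each, and Egln1 was not among the symbols and is not analysed here. The table holds the RNA of neonatal cardiomyocytes, heart muscle cells isolated from the ventricles of wild type Wistar rats at postnatal day 1 (day 0 in 1 protocol), transfected 1 day after plating with a synthetic mimic of hsa-miR-25-3p, hsa-miR-93-5p or hsa-miR-106b-5p, or with the worm miRNA cel-miR-67 as the control mimic. All cultures received the mimic with the same lipid reagent and RNA was taken 72 h later. A step of plating on plastic before culture enriches cardiomyocytes without removing every other cell. The labels give the mimic dose once as 25 nM and once as 25 mM. There was 1 library for each of the 4 mimics, so no difference between mimics could be set against a spread between cultures, and no test between conditions was made.

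Cells sense oxygen through the HIF proteins. In normal oxygen the prolyl hydroxylases (the Egln genes) mark the alpha subunits, encoded by Hif1a and Epas1, for capture by the von Hippel-Lindau protein and destruction; when oxygen falls, the alpha subunits persist, pair with the partner encoded by Arnt and bind hypoxia response elements near genes for blood vessel growth, glycolysis and mitochondrial turnover. In heart muscle this pathway is known for the response to ischemia, in which cardiomyocytes secrete VEGF and adrenomedullin. HIF activity is set mostly at the protein level, which RNA does not measure. Hif1a and Vegfa have been reported as targets of the miR-106b seed family, and the mimics were compared for this group of genes with that in view.

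The sequences of the 3 rat miRNAs, from RefSeq on the build GRCr8, show which mimics share a seed, the stretch by which a miRNA recognises its targets. They lie together on the minus strand, miR-106b at chr12:22157103-22157123, miR-93 at chr12:22156894-22156916 and miR-25 at chr12:22156652-22156673. Capitals mark the seed, bases 2 to 8 from the 5′ end, and the mimics carry the human sequences, which were not compared with these.
miR-106b: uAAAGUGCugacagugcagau
miR-93: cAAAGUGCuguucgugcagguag
miR-25: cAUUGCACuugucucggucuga
The seed of miR-106b and miR-93 is the same 7 bases, AAAGUGC, and pairs with GCACUUU, while miR-25 carries the seed AUUGCAC, which pairs with GUGCAAU. Seed matches in the transcripts of the members were not searched.

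Values are RPKM, the reads of a gene divided by its length and by the size of its library. A gene was compared with the control when its RPKM was above 1.0 in both libraries, which is no statistical test, and it was called higher or lower when the ratio passed 1.3-fold, 0.38 on the log2 scale. Intervals are 95% exact (Clopper-Pearson) intervals of the log2 ratio from the whole reads behind the RPKM values, and they cover counting error only. Where 3 values stand without names they are in the order miR-106b, miR-93, miR-25. Every comparison uses the same control library, so like changes of a gene with each mimic are not independent of each other. Reads on listed genes numbered between 15175185 in the control and 18797234 after miR-106b. Cardiomyocyte markers were abundant, with all 9 of the 9 found above 1.0 RPKM in every library and a summed RPKM of 19920 in the control, 17970 after miR-106b, 13356 after miR-93 and 11883 after miR-25, where Tnni3 was at 15.9 against 351 to 543 in the others. Fibroblast markers were also present, all 8 above 1.0 RPKM in every library, and their summed RPKM was 821 in the control, 637 after miR-106b, 743 after miR-93 and 317 after miR-25. Macrophage markers summed to between 10.7 and 15.2 RPKM. In bulk RNA fewer cells of a type and less RNA per cell cannot be told apart.

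Across these 4 libraries Egln3, Bnip3, Adm and Hif1a were the members past 1.3-fold in at least 1 comparison. Egln3 was lower with both mimics of the AAAGUGC seed, Bnip3 was lower after miR-93 and higher after miR-25, Adm was lower after miR-25, and Hif1a was higher after miR-93. After miR-106b 0 of the 8 compared members were called higher and 1 lower, after miR-93 1 higher and 2 lower, and after miR-25 1 higher and 1 lower. Of all genes compared, 11.9% were called higher and 12.7% lower after miR-106b, 15.1% and 15.6% after miR-93, and 19.3% and 22.6% after miR-25, so the counts of 0 to 2 members are close to what these shares give for 8 genes. The median log2 fold change of the compared members was -0.16 after miR-106b, 0.01 after miR-93 and 0.06 after miR-25, beside 0.00, 0.00 and -0.01 for all genes. The shares of all genes depend on the scaling: 48.2%, 49.2% and 46.1% of the called genes were higher after miR-106b, after miR-93 and after miR-25 at the deposited scaling, and 64.7%, 72.3% and 64.8% when each library was scaled to its reads on listed genes, which moved the median of all genes to 0.08, 0.14 and 0.14.

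**Figure D1:**
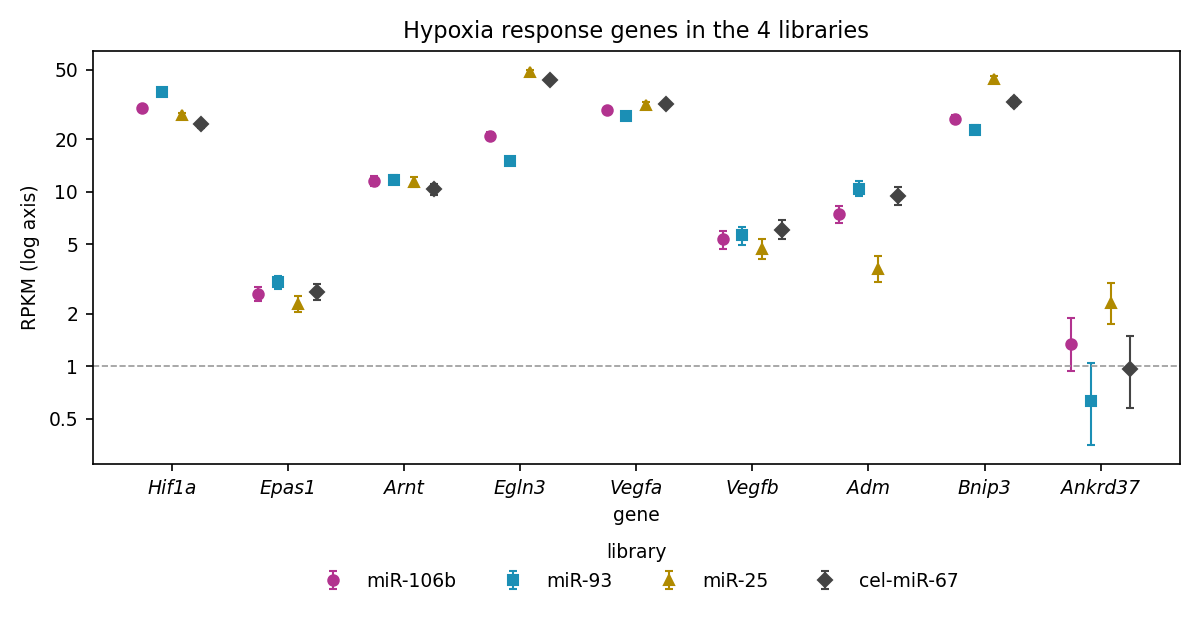
RPKM on a log axis of the 9 hypoxia response genes found, with 1 point for each of the 4 libraries, exact Poisson 95% intervals as bars (counting error only) and a dashed line at 1 RPKM. Egln3 sits at 43.9 and 48.5 in the control and after miR-25, and at 20.9 and 15 after miR-106b and miR-93, while Vegfa stays between 27.3 and 32.0.

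Among the subunits, Hif1a, the oxygen-regulated subunit found in nearly all cells, was the most abundant, at 24.3 RPKM in the control, 27.4 after miR-25, 30.0 after miR-106b and 37.2 after miR-93. All 3 mimic libraries lay above the control and each step in this order was larger than counting error, the smallest being 0.13 on the log2 scale between miR-106b and miR-25 (interval 0.07 to 0.20). Its log2 fold change was 0.62 after miR-93 (0.55 to 0.69), past the limit, 0.31 after miR-106b (0.23 to 0.38) and 0.17 after miR-25 (0.10 to 0.25). With libraries scaled to reads on listed genes the value after miR-106b was 0.39, past the limit. Of the compared genes, 93.9% had a smaller log2 fold change than Hif1a after miR-93 and 84.0% after miR-106b.

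Epas1 encodes the second alpha subunit, HIF-2 alpha, best known from endothelium. It was scarce, at 2.67 RPKM in the control, 2.60 after miR-106b, 3.03 after miR-93 and 2.28 after miR-25, and no neighbours in the order of the levels differed beyond counting error. Its log2 fold change was -0.04 after miR-106b (-0.24 to 0.16), 0.18 after miR-93 (-0.01 to 0.38) and -0.23 after miR-25 (-0.44 to -0.02). With libraries scaled to reads on listed genes these became 0.04 (-0.16 to 0.24), 0.33 (0.13 to 0.53) and -0.08 (-0.29 to 0.13). The direction after miR-106b thus flips, and the value whose interval excludes 0 is that after miR-93 in place of miR-25. The highest library was above the lowest by 0.41 on the log2 scale (interval 0.22 to 0.61, miR-93 over miR-25). Endothelial markers were low in all libraries, where 2 of the 7 found, Eng and Tek, passed 1.0 RPKM, Cldn5 was listed at 0 in the control and after miR-106b, and the summed RPKM ran from 14.8 after miR-25 to 19.6 in the control. Most of these sums was Eng, at 13 RPKM after miR-25 and 15.6 in the control.

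Arnt, the partner subunit whose level does not follow oxygen, was at 10.3 RPKM in the control and at 11.4, 11.5 and 11.7 after miR-25, miR-106b and miR-93. The mimics lay within 0.04 of each other on the log2 scale, and each was above the control by 0.15 (0.00 to 0.29), 0.16 (0.02 to 0.30) and 0.19 (0.04 to 0.33). Because RPKM counts reads per length, the subunits can be set side by side in a library. Hif1a stood above Epas1 by 9.09-fold in RPKM in the control (interval 8.14 to 10.2), 11.6-fold after miR-106b (10.5 to 12.7), 12.3-fold after miR-93 (11.2 to 13.5) and 12.0-fold after miR-25 (10.8 to 13.4). The ratio of Hif1a to Arnt was 2.36 in the control (2.17 to 2.57), 2.40 after miR-25 (2.23 to 2.58), 2.60 after miR-106b (2.43 to 2.79) and 3.18 after miR-93 (2.96 to 3.41). These ratios are taken within a library and do not depend on how the libraries were scaled.

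Egln3, the prolyl hydroxylase that is itself a HIF target, had the widest range among the compared members, 3.22-fold from the lowest to the highest library, next to 2.90-fold for Adm. Its RPKM was 43.9 in the control and 48.5 after miR-25, and 20.9 after miR-106b and 15 after miR-93, from 2803, 3724, 1749 and 1158 reads. The mimics with the shared seed were thus both low and the other libraries both high. The log2 fold change was -1.07 after miR-106b (-1.16 to -0.99), -1.54 after miR-93 (-1.64 to -1.44) and 0.14 after miR-25 (0.07 to 0.22), so control RPKM was 2.10 and 2.92 times that of the first 2 mimics. Only 117 of 11296 compared genes had a lower log2 fold change after miR-106b, and 98 of 11280 after miR-93. Between the mimics of the same seed, miR-93 was lower than miR-106b by a log2 ratio of -0.47 (-0.58 to -0.36). Relative to its substrate gene, the ratio of Egln3 to Hif1a RPKM was 1.81 in the control (1.71 to 1.91) and 1.77 after miR-25 (1.69 to 1.86), against 0.695 after miR-106b (0.657 to 0.736) and 0.404 after miR-93 (0.379 to 0.431).

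**Figure D2:**
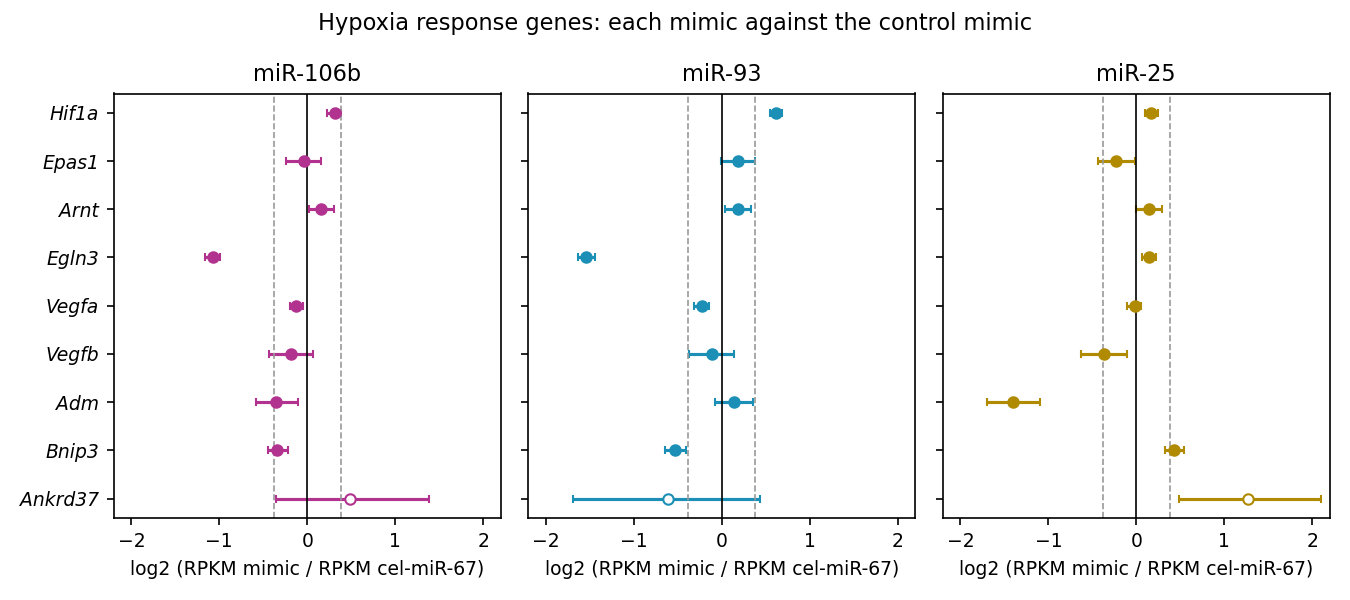
Log2 ratio of RPKM, mimic over cel-miR-67, of the 9 members found, 1 panel per mimic, with 95% exact intervals as bars and dashed lines at 1.3-fold; open circles were not compared because 1 library was at or below 1.0 RPKM. Egln3 lies at -1.07 after miR-106b and -1.54 after miR-93, and Adm at -1.40 after miR-25.

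Other genes that restrain the HIF proteins were read from a list of 16 subunit and oxygen-sensing genes, of which 15 were found and compared, Elob and Eloc under the older symbols Tceb2 and Tceb1. After miR-106b 1 was called higher and 3 lower, after miR-93 1 and 3, and after miR-25 3 and 4, with medians of 0.05, -0.02 and -0.09. Scaled to reads on listed genes, the counts were 1 higher and 2 lower, 2 and 1, and 4 and 2. Of all genes compared at the deposited scaling, 11.9%, 15.1% and 19.3% were called higher and 12.7%, 15.6% and 22.6% lower. The 3 lower genes were the same after miR-106b and miR-93: Egln2, another prolyl hydroxylase, Hif1an, the asparagine hydroxylase that blocks HIF coactivators, and Vhl, the capture protein. Both comparisons share the control library, and 12.7% and 15.6% of all compared genes were called lower in them. The overlap of these calls over all genes is not given here. Egln2 was at 14.6 RPKM in the control and at 13.4, 9.68 and 10.4 after miR-25, miR-106b and miR-93, and its log2 fold changes were -0.12 (-0.28 to 0.03), -0.60 (-0.76 to -0.43) and -0.49 (-0.66 to -0.33) in that order. Hif1an was at -0.41 after miR-106b (-0.64 to -0.18), -0.67 after miR-93 (-0.93 to -0.42) and 0.39 after miR-25 (0.18 to 0.60). Vhl was lower with each mimic, at -0.47 (-0.63 to -0.31), -0.41 (-0.58 to -0.25) and -0.58 (-0.75 to -0.41), in comparisons that share the control library. Of other subunits of the Vhl ligase complex, Elob was at 0.24, -0.36 and -0.68 and Rbx1 at 0.46, -0.08 and -0.46 after miR-106b, miR-93 and miR-25. Cited2, which competes with HIF for its coactivators, was higher after miR-93, at 0.52 (0.40 to 0.65), and miR-25, at 0.53 (0.41 to 0.66), and Arnt2, an Arnt relative, was higher after miR-25, at 1.28 (1.03 to 1.54), from 1.21 RPKM in the control.

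Vegfa, the main growth factor for blood vessels and a classic HIF target, was not past 1.3-fold with any mimic. It was at 32.0 RPKM in the control, 31.5 after miR-25, 29.2 after miR-106b and 27.3 after miR-93, so the libraries with the shared seed were again the lowest. The log2 fold change was -0.13 after miR-106b (-0.20 to -0.05), -0.23 after miR-93 (-0.31 to -0.15) and -0.02 after miR-25 (-0.10 to 0.05). With libraries scaled to reads on listed genes these became -0.05 (-0.12 to 0.03), -0.08 (-0.16 to -0.01) and 0.13 (0.05 to 0.20), so the direction after miR-25 flips and no difference after miR-106b was detectable under that scaling. From the deposited values, 33.1% of compared genes had a lower log2 fold change than Vegfa after miR-106b and 25.3% after miR-93.

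Vegfb, a relative of Vegfa known for metabolic and coronary effects in heart, was at 6.07 RPKM in the control and at 5.62, 5.33 and 4.70 after miR-93, miR-106b and miR-25. Neighbours in this order did not differ beyond counting error, and the value after miR-25 was -0.37 on the log2 scale (-0.63 to -0.10), just inside the limit of 0.38. When libraries were scaled to reads on listed genes it was -0.22 (-0.49 to 0.04), and the value after miR-93 flipped from -0.11 to 0.03. Vegfa RPKM was 5.26 times that of Vegfb in the control (4.62 to 6.02), 5.49 times after miR-106b (4.86 to 6.22), 4.85 times after miR-93 (4.28 to 5.51) and 6.69 times after miR-25 (5.85 to 7.69).

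In the list of 8 other VEGF ligands and receptors, 7 genes were compared with each mimic, of which 1 was called higher and 1 lower after miR-106b, 2 and 1 after miR-93, and 2 and 3 after miR-25. The shares of all compared genes were 11.9% higher and 12.7% lower, 15.1% and 15.6%, and 19.3% and 22.6%. Nothing particular to the VEGF list is read from its counts. Kdr, the main signalling receptor of Vegfa, was at 1.26 RPKM in the control and higher with each mimic, at 0.45 (0.21 to 0.70), 0.79 (0.55 to 1.03) and 0.86 (0.63 to 1.10) on the log2 scale. Flt1, which binds Vegfa and Vegfb with high affinity, was at -0.20 after miR-106b (-0.37 to -0.02), -0.43 after miR-93 (-0.62 to -0.25) and -0.40 after miR-25 (-0.59 to -0.22). Flt4, the receptor for Vegfc, spread most, with 3.29 RPKM in the control, 1.07 after miR-106b, 0.314 after miR-93 and 5.97 after miR-25. Its log2 fold change was -1.62 after miR-106b (-1.88 to -1.37) and 0.86 after miR-25 (0.69 to 1.03), and after miR-93, where it was under the RPKM limit, -3.39 (-3.85 to -2.96). Vegfc itself was higher after miR-93, at 0.46 (0.19 to 0.73), and lower after miR-25, at -0.70 (-1.03 to -0.38). The coreceptor Nrp1 was lower after miR-25, at -0.92 (-0.98 to -0.85), while Pgf and Nrp2 were within 1.3-fold with every mimic. The summed RPKM of the endothelial markers, given above and mostly that of Eng, was lowest after miR-25, and its part in these receptor values was not tested.

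Adm, the gene of the vasodilator peptide adrenomedullin, was at 9.48 RPKM in the control, 10.4 after miR-93, 7.44 after miR-106b and 3.60 after miR-25, from 298, 395, 307 and 136 reads. The miR-25 library stood apart below the other 3. Its log2 fold change was -1.40 after miR-25 (-1.70 to -1.10), with 225 of 11198 compared genes lower, and -0.35 after miR-106b (-0.58 to -0.11) and 0.14 after miR-93 (-0.08 to 0.36). The summed levels of the cardiomyocyte and fibroblast markers were also lowest in the miR-25 library, and their part in the Adm value was not tested. Not every marker was lowest there. Actc1 was lowest after miR-93, at 2733 RPKM against 4953 after miR-25. Pdgfra and Dcn were not lowest after miR-25, and Lum was highest there, at 10.1 against 5.52 in the control.

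Among the adrenomedullin receptor genes, the receptor Calcrl was lower after miR-106b, at -0.69 (-0.97 to -0.41), and miR-93, at -0.58 (-0.86 to -0.30), and at 0.34 after miR-25 (0.10 to 0.58). Of its partner proteins, Ramp1 was lower with each mimic, at -1.16 (-1.44 to -0.89), -1.01 (-1.28 to -0.74) and -1.66 (-1.98 to -1.34), from 16.5 RPKM in the control. Calcrl forms adrenomedullin receptors with Ramp2 or Ramp3, so Ramp1 stands in this list only as a partner of Calcrl. Ramp3 was lower after miR-106b, at -0.81 (-1.22 to -0.41), and miR-93, at -1.77 (-2.31 to -1.26), and at -0.07 after miR-25 (-0.43 to 0.30), and Ramp2 was below 1.0 RPKM in every library. The related peptide Adm2 was higher after miR-106b, at 0.65 (0.13 to 1.20), and miR-93, at 0.55 (0.01 to 1.10), from 1.98 RPKM, and was at 0.786 RPKM after miR-25. In all, 1 of these 5 genes was called higher and 3 lower after miR-106b and after miR-93, of 4 compared, and 0 higher and 1 lower after miR-25, of 3 compared. Of all genes compared, 11.9% were called higher and 12.7% lower after miR-106b, 15.1% and 15.6% after miR-93, and 19.3% and 22.6% after miR-25. The list is short, its comparisons share the control library, and its counts were not tested against these shares. With an RPKM limit of 2.0 the list had 0 higher and 2 lower after miR-106b, 0 and 1 after miR-93, and 0 and 1 after miR-25. The list's medians, which hold Adm2 where it was compared, were -0.75, -0.80 and -0.07, and -0.99, -1.01 and -0.86 with that limit. Only Ramp1 and Ramp3 pass it with miR-106b and miR-25, and only Ramp1 with miR-93. The gap between miR-25 and the other mimics thus depends on which genes pass the limit. With the limit of 1.0 passed in either library the median after miR-25 was -0.70.

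Bnip3 encodes a mitochondrial protein that promotes mitophagy and cell death and is a HIF target in cardiomyocytes. Its RPKM was 32.8 in the control, 26.0 after miR-106b, 22.7 after miR-93 and 44.3 after miR-25. As for Egln3, the libraries with the shared seed were lowest and miR-25 was highest, and each step in the order exceeded counting error. Mural cell markers, all 6 found and 4 or 5 of them above 1.0 RPKM in a library, had a summed RPKM with a like pattern, 43.7 in the control, 34.6 after miR-106b, 35.5 after miR-93 and 58.4 after miR-25. Of these Myh11 was at 13.8, 7.62, 10.4 and 27.6 in the same order. Rgs5 and Kcnj8 were also lowest with the shared seed and highest after miR-25. The others did not share this pattern. In the same order Pdgfrb was at 10.5, 11.1, 13.5 and 14.8, and Cspg4 at 15.2, 11.9, 7.41 and 8.65. Notch3 was at 2.15, 2.5, 2.76 and 2.12. The part of mural markers in the values of Egln3 and Bnip3 was not tested. The log2 fold change of Bnip3 was -0.34 after miR-106b (-0.45 to -0.22), -0.53 after miR-93 (-0.65 to -0.41) and 0.43 after miR-25 (0.33 to 0.54), and miR-25 stood above miR-93 by 0.96 (0.86 to 1.07). Scaled to reads on listed genes, the fold changes were -0.25 (-0.37 to -0.14), -0.38 (-0.50 to -0.26) and 0.58 (0.48 to 0.68). The value after miR-93 was then barely past the limit. At the deposited scaling no value of Bnip3 passed 1.5-fold. Its relative Bnip3l, a mitophagy receptor, was higher with each mimic, at 0.49 (0.35 to 0.63), 0.40 (0.26 to 0.55) and 0.96 (0.82 to 1.09), so at the deposited scaling the relatives differed in direction in the libraries with the shared seed.

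Ankrd37, an ankyrin repeat gene that responds to HIF, was the scarcest member, with 19 reads and 0.961 RPKM in the control, which kept it out of the counts. It was at 1.35 RPKM after miR-106b from 35 reads, 0.630 after miR-93 from 15 reads and 2.31 after miR-25 from 55 reads. The log2 fold change was 1.27 after miR-25 (0.49 to 2.10), while after miR-106b, at 0.49 (-0.36 to 1.38), and miR-93, at -0.61 (-1.69 to 0.44), no difference from the control was detectable at this depth. The miR-25 library was above the miR-93 library by 1.88 (1.03 to 2.81).

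**Figure D3:**
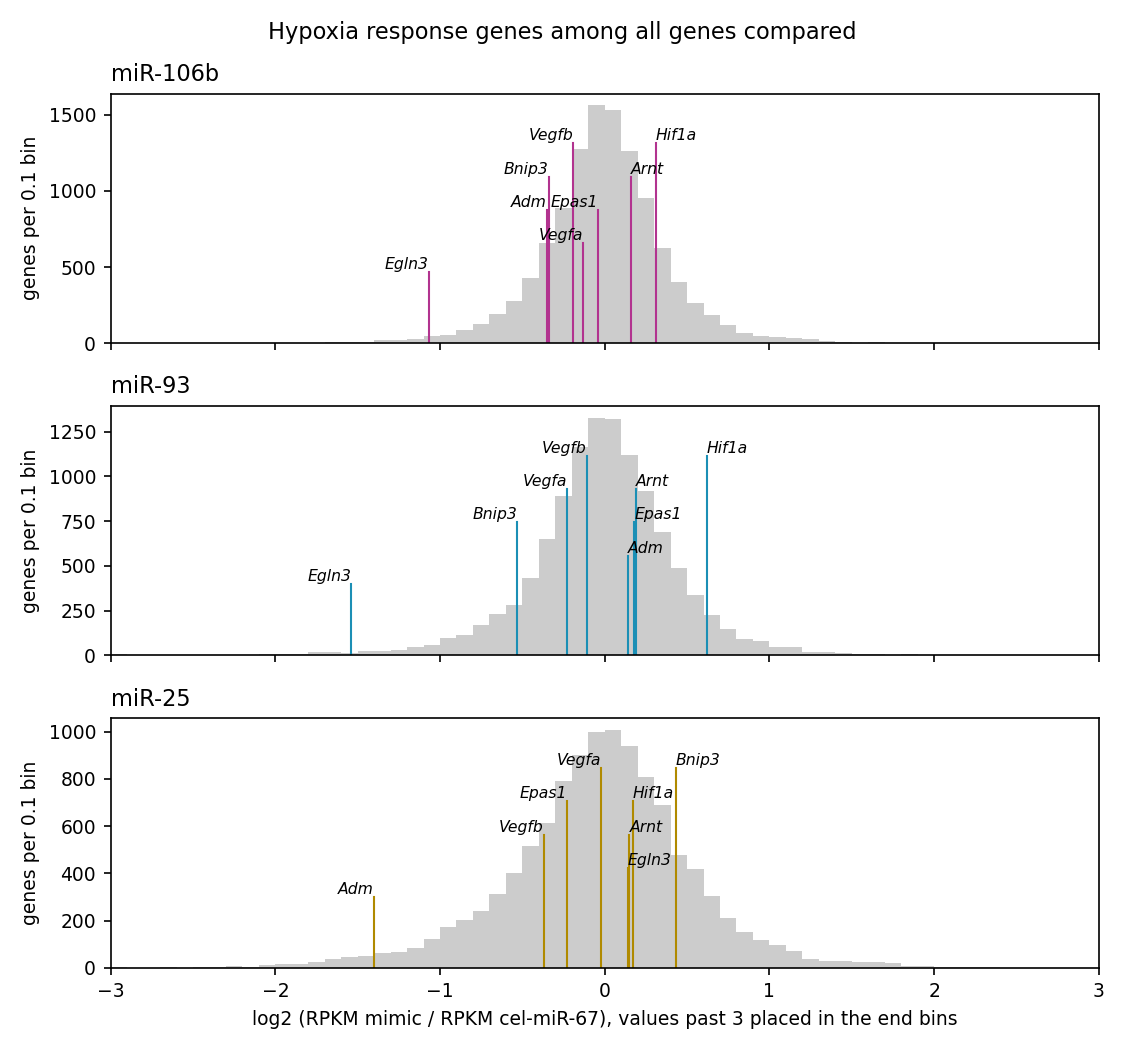
Histograms of the log2 ratio of RPKM, mimic over cel-miR-67, for all compared genes (grey, genes per bin of 0.1) with the 8 compared members as labelled lines whose height has no meaning. Egln3 lies in the lower tail after miR-106b and miR-93 and Adm in the lower tail after miR-25, while the other members lie between -0.53 and 0.62.

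Of the HIF targets among the members, Bnip3 and Ankrd37 carry ACGTG, a form of the core of the hypoxia response element, near their start. Their RefSeq windows of 300 bases (250 before to 50 after the start, build GRCr8) are shown for that reason. Other forms of the core were not searched. Capitals mark ACGTG or its reverse complement CACGT, which overlap in CACGTG and were then counted as 1 site. Bnip3 lies on the minus strand, at chr1:203154913-203155212, and Ankrd37 on the plus strand, at chr16:53001257-53001556.
Bnip3: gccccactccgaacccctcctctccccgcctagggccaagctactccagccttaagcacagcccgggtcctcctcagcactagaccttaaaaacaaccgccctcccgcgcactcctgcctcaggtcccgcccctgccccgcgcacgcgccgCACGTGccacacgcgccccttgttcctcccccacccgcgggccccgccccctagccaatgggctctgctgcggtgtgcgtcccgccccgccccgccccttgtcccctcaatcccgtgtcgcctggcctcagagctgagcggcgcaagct
Ankrd37: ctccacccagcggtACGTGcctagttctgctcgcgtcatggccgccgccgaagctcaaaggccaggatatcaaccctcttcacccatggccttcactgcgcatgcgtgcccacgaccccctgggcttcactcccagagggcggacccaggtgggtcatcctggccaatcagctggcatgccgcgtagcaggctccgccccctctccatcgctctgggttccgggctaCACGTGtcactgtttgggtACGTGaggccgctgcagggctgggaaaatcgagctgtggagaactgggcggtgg
With the start base as 0, Bnip3 holds 1 site, whose first base is at -99, and Ankrd37 holds 3, at -236, -23 and -4. Hif1a holds 2, at -229 and -164, and Egln1 holds 1, at 2. No match was found in the windows of Epas1, Arnt, Egln3, Vegfa, Vegfb or Adm, which says only that these letters are not there. Bnip3, with 1 site, and Ankrd37, with 3, were highest after miR-25 and lowest after miR-93. Egln3, with 0, was highest and lowest in the same libraries, and Hif1a, with 2, was highest after miR-93. Elements outside the windows were not searched, and a link of the sites to the levels was not tested. The ACGTG form of the core occurred in 19.3% of all 33469 promoter windows and in 28.2% of 7726 genes above 1.0 RPKM in every library. It occurred in 4 of the 10 members, in 11 of 17 genes of the glycolytic list and in 20 of 31 genes of the other target list, and in 2 of 14 genes of the subunit and oxygen-sensing list, 0 of 8 of the VEGF list and 0 of 4 of the adrenomedullin receptor list. A match is a description of sequence, and binding was not measured here.

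**Figure D4:**
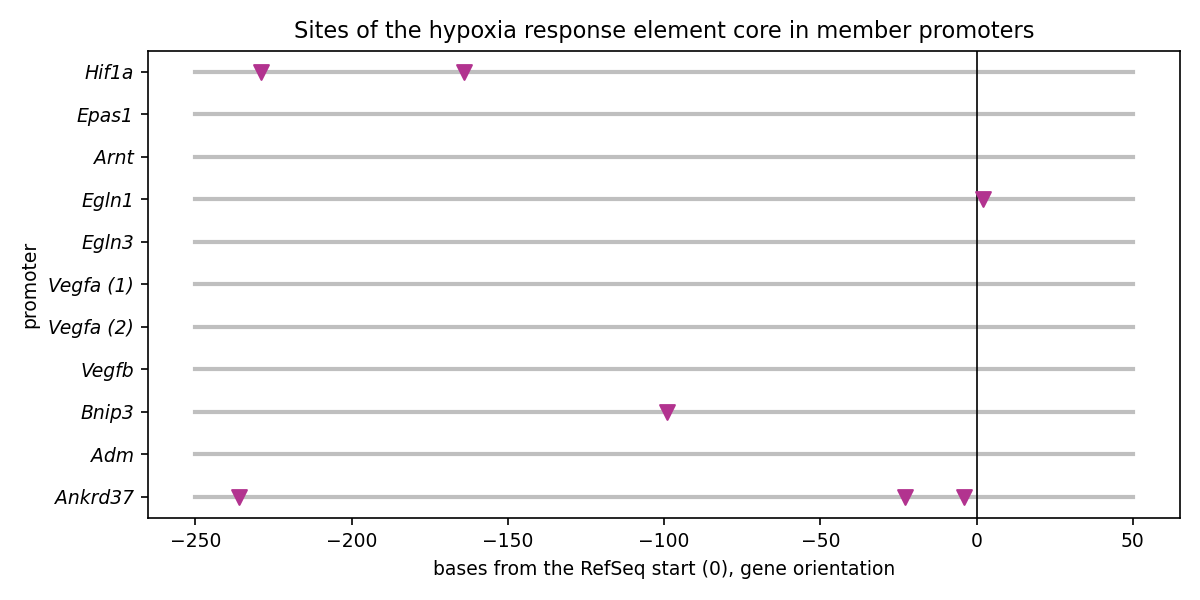
Positions of ACGTG or CACGT (triangles) in the RefSeq promoter windows of the 10 members, in bases from the start (0) in the direction of the gene; Vegfa has 2 windows. Sites lie in the windows of Hif1a, Egln1, Bnip3 and Ankrd37.

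Of the 18 glycolytic genes listed as HIF targets, 17 were compared and Pfkfb4, listed more than once, was left out. After miR-106b 4 were called higher and 1 lower, after miR-93 4 and 2, and after miR-25 3 and 6, with medians of 0.02, -0.19 and -0.09. Scaled to reads on listed genes, they were 5 higher and 1 lower, 5 and 2, and 4 and 4. At the deposited scaling 11.9%, 15.1% and 19.3% of all compared genes were called higher and 12.7%, 15.6% and 22.6% lower. Nothing particular to the glycolytic list is read from its counts. Slc16a3, the lactate exporter, was higher with each mimic, at 0.84 (0.73 to 0.96), 0.63 (0.51 to 0.75) and 0.51 (0.39 to 0.64), as was Hk2, a hexokinase, at 0.63 (0.50 to 0.77), 0.47 (0.33 to 0.61) and 0.49 (0.35 to 0.63). Pfkp, a phosphofructokinase, was lower with each, at -0.59 (-0.63 to -0.54), -1.41 (-1.46 to -1.35) and -0.60 (-0.65 to -0.56). Aldoc, an aldolase, was at 0.98 after miR-93 (0.87 to 1.10) and -1.65 after miR-25 (-1.83 to -1.48), and Pgam1, a phosphoglycerate mutase, at -1.77 after miR-25 (-1.84 to -1.70). Slc2a1, a glucose transporter and HIF target named after its values were seen, was at 0.82 after miR-106b (0.73 to 0.91), 0.60 after miR-93 (0.50 to 0.70) and -0.68 after miR-25 (-0.80 to -0.56), the reverse of Egln3 and Bnip3 after miR-106b and miR-93.

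The list of 40 other HIF targets gave 39 genes found, and 5 higher and 7 lower of 35 compared after miR-106b, 4 and 8 of 34 after miR-93, and 10 and 10 of 35 after miR-25. When libraries were scaled to reads on listed genes the balance turned over after miR-106b and miR-93, to 8 higher and 4 lower with each. After miR-25 the even counts became 13 higher and 5 lower. The medians were -0.06, -0.16 and 0.07, and 0.02, -0.01 and 0.22 under that scaling. Of a pair of related repressors, Bhlhe41 was lower with each mimic, at -1.06 (-1.58 to -0.54), -0.71 (-1.20 to -0.22) and -0.99 (-1.52 to -0.47), and Bhlhe40 was at -0.71 (-0.89 to -0.53), -0.97 (-1.17 to -0.77) and 0.39 (0.24 to 0.55). Igfbp3, a binding protein of insulin-like growth factors, was higher with each, at 0.64 (0.25 to 1.05), 1.63 (1.26 to 2.00) and 0.75 (0.36 to 1.16). Sap30, of a corepressor complex, was at 0.74 after miR-106b (0.43 to 1.06), and after miR-25 Ak4, a mitochondrial adenylate kinase, was at 1.48 (0.82 to 2.19) and Stc2, a secreted stanniocalcin, at -1.85 (-2.36 to -1.36). The shares of all genes past the limit, given above, were 11.9% higher and 12.7% lower, 15.1% and 15.6%, and 19.3% and 22.6%, and nothing particular to these HIF targets is read from the counts.

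**Figure D5:**
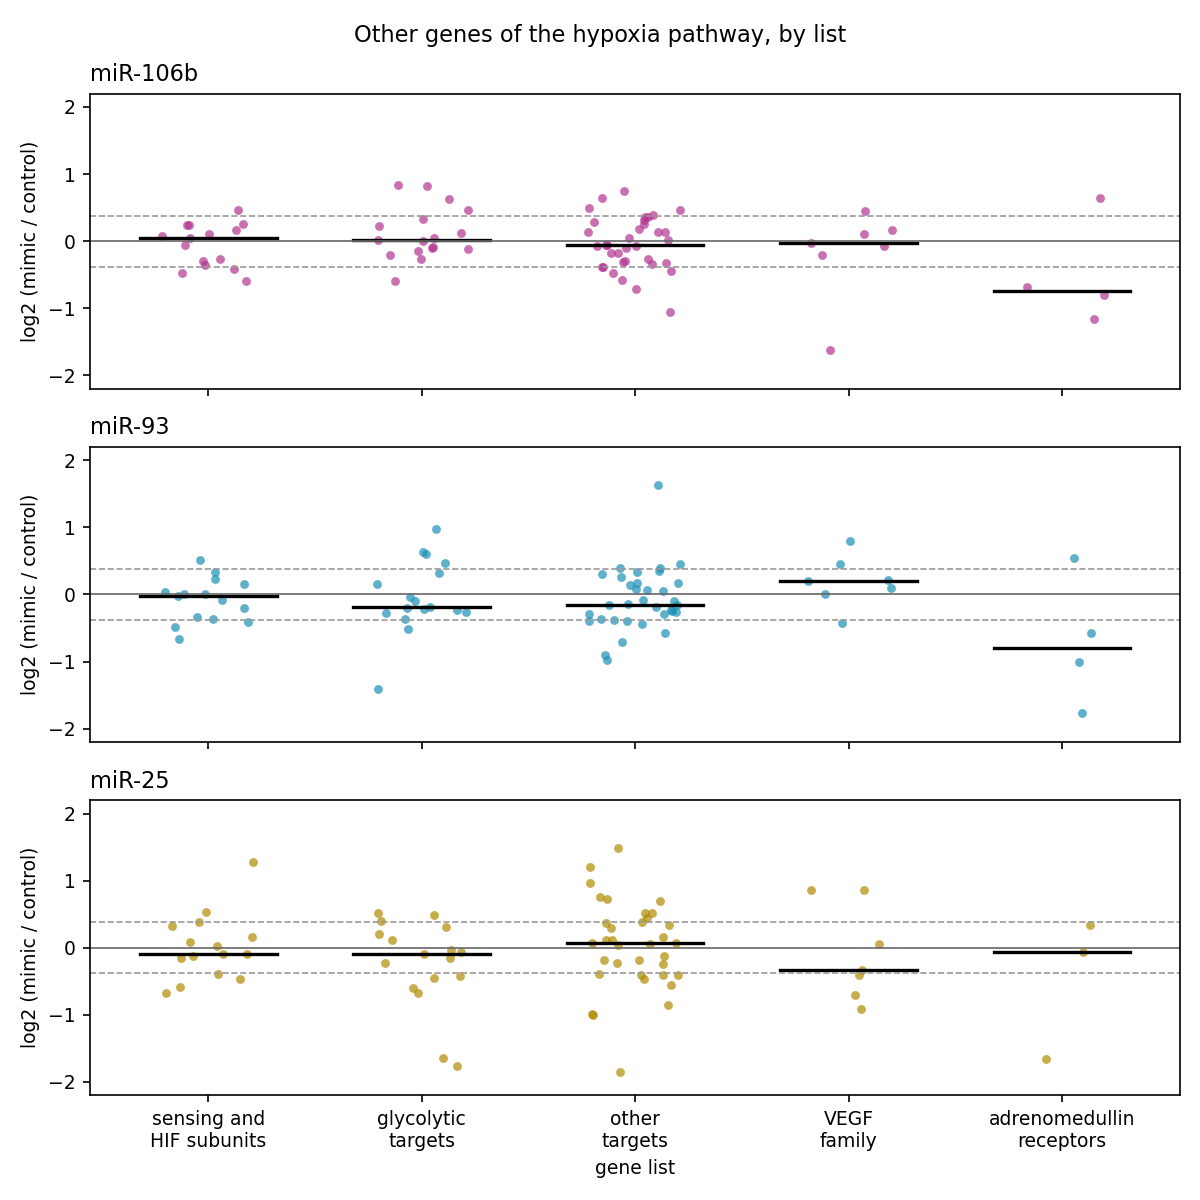
Log2 ratio of RPKM, mimic over cel-miR-67, for the compared genes of 5 other lists of the hypoxia pathway, 1 point per gene with random sideways spread, black bars at the medians and dashed lines at 1.3-fold. The points of each target list lie on both sides of 0 with every mimic. The adrenomedullin receptor list, which includes the peptide gene Adm2 and Ramp1, a Calcrl partner outside these receptors, has medians of -0.75, -0.80 and -0.07. With an RPKM limit of 2.0 the last is -0.86, from Ramp1 and Ramp3 alone.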

How the data were processed

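RNA of 4 cultures, 1 for each mimic, was sequenced in single reads. Per the methods and the labels, the authors trimmed adaptors with Cutadapt, aligned reads to the rat genome with STAR, and turned rounded counts per gene into RPKM with edgeR, and they deposited the RPKM values of 15731 genes. The submitters' processing notes name STAR 2.7 and the build Rnor 6.0. The program that counted reads on genes and the handling of strand are not given in the sources used here. The table of the whole series was identical to the 4 files of single samples.

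One read is worth the same RPKM for a gene throughout a library, which gave back whole reads for all 15731 genes, after the method was tested on simulated data. Listed genes held between 60.4% and 66.9% of the library sizes behind the RPKM values. Fold changes are ratios of deposited RPKM without a pseudocount, and no test between conditions was run because each mimic has 1 library. The members and gene lists were chosen with earlier results of these data known. All members are named, and from each other list the genes with the highest and the lowest value past 1.3-fold with each mimic, the genes past it in the same direction with all 3 mimics, and the VEGF and adrenomedullin receptor genes. 1 gene that meets this rule is not reported here. List genes were matched by symbol or by an older RefSeq symbol. Alternatives were other RPKM and fold limits, pseudocounts of 0.1 and 1 RPKM, centring on the median gene, scaling to reads on listed genes, and intervals that exclude no change. Computation used pandas 2.3.3 and numpy 2.4.6 in Python 3.11.15, intervals came from scipy 1.17.1, and plots from matplotlib 3.10.9.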

Additional observations from a re-analysis of the deposited data

How the results depend on the processing

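Each mimic has 1 library, so the values describe these cultures and their depth limits Ankrd37 most. No paired analysis was possible because each group has 1 library. Of 188 log2 fold changes of single members under the alternatives, 176 stayed within their counting interval and 12 moved beyond it. Other RPKM limits leave a fold change as it was and could not move it. All 12 that moved did so with scaling to reads on listed genes. None of the log2 fold changes past 1.3-fold changed sign. Called members with miR-106b were 1 higher in place of 0 without an RPKM limit or with the limit passed in either library (Ankrd37) and with scaling to reads on listed genes (Hif1a). With miR-25, 2 were higher in place of 1 without an RPKM limit or with it passed in either library, 0 were higher at 1.5-fold or 2-fold, and 0 in place of 1 were lower with an RPKM limit of 10, which leaves Adm out. With miR-93, 0 were higher at 2-fold and 1 in place of 2 was lower at 1.5-fold and 2-fold. The members' median moved to 0.21 with miR-25 and 0.16 with miR-93 when scaled to reads on listed genes, and to -0.23 with miR-93 with an RPKM limit of 10.

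Of 330 counts of called genes in the other lists under the alternatives, 94 moved by over 1.5 times or to or from 0 and 236 did not.

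For all genes, higher and lower calls with miR-106b were 410 and 457 with an RPKM limit of 10, 2785 and 2935 without a limit, 588 and 647 at 1.5-fold and 139 and 150 at 2-fold. With miR-93 they were 411 and 660, 3249 and 3080, 781 and 942, and 192 and 289, and 2836 and 1089 when scaled to reads on listed genes. With miR-25 they were 619 and 977, 3712 and 4032, 1189 and 1538, and 360 and 561, and 3284 were higher when scaled to reads on listed genes. The cause of the shift with this scaling was not tested.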
